A study of Mus musculus with 12 samples.

Results

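The 8 genes described here encode the chain through which leukemia inhibitory factor (LIF) signals in mouse embryonic stem (ES) cells. They are the receptor genes Lifr and Il6st, the kinase genes Jak1, Jak2 and Tyk2, the transcription factor gene Stat3, and the feedback inhibitor genes Socs3 and Socs2. They were chosen by symbol, through the GENCODE mouse annotation, from the 52550 gene identifiers that each of 12 RNA-seq tables lists, and each symbol matched 1 identifier. All 8 of the 8 had enough counts to be among the 16987 genes tested. The study asked how ES cells respond to JQ1, an inhibitor of the BET bromodomain proteins that read acetylated histones, when the kinase GSK3 is blocked by medium or by knockout. Cells received 100 nM JQ1 or its solvent DMSO and were collected after 60 h.

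There were 6 groups of 2 libraries each. GSK3-knockout ES cells in serum/LIF medium received JQ1 or DMSO. Unmodified ES cells in 2iL received JQ1 or DMSO, and unmodified ES cells in serum/LIF received JQ1 or DMSO. 2iL is a serum-free medium with the N2 and B27 supplements, an inhibitor of the kinase MEK (PD0325901 at 1 μM) and an inhibitor of GSK3. LIF at 1000 U/ml was in both media, so every group was exposed to the ligand and no group lacked it. Serum/LIF cultures came off a growth-arrested fibroblast feeder layer and onto gelatin for the experiment, while 2iL cultures were on gelatin throughout, so medium and feeder history cannot be told apart. The labels do not say how many knockout clones were used, which of the paired genes Gsk3a and Gsk3b was deleted, the strain, or whether the 2 libraries of a group came from separate cultures. The p-values below set a difference between groups against how far libraries of the same group lie apart. That spread was estimated per gene over the 6 groups together, and it may be technical.

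LIF is a cytokine of the interleukin-6 family. It binds the receptor chain LIFR, which pairs with the shared chain gp130, the product of Il6st, and the kinases JAK1, JAK2 and TYK2 bound to the receptor phosphorylate STAT3. Phosphorylated STAT3 enters the nucleus, where it maintains self-renewal of mouse ES cells and also switches on Socs3, whose product binds gp130 and JAK and dampens the signal. This feedback makes the level of Socs3 a commonly used readout of STAT3 activity, and transcript levels of the receptor, kinase and Stat3 genes do not report phosphorylation.

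The libraries held 17869865 to 48723436 expected counts, and the deepest, serum/LIF with DMSO replicate 1, stood above the next at 29882439. Mitochondrial genes took 4.67% to 11.85% of the counts and a smaller share with JQ1 in each setting without overlap, at 7.20% and 8.43% in knockout with JQ1 against 10.66% and 11.16% with DMSO, 4.67% and 4.82% in 2iL with JQ1 against 6.75% and 6.41% with DMSO, and 6.45% and 7.51% in serum/LIF with JQ1 against 9.44% and 11.85% with DMSO. Leaving these genes out lost none of the calls on the 8 genes. All 8 ES cell markers examined had a mean of at least 1 TPM (transcript level scaled to length and library) in each of the 6 groups, but they moved with the comparisons. With DMSO, 6 of the 8 were higher and 0 lower in the knockout against unmodified cells, and 6 were higher and 2 lower in 2iL against serum/LIF. Of all genes tested, 18.9% were higher and 21.0% lower in the knockout, and 28.3% were higher and 26.5% lower in 2iL. With JQ1, 1, 1 and 0 were higher and 1, 1 and 5 lower in knockout, 2iL and serum/LIF. Of all genes, 14.6%, 11.2% and 8.54% were higher and 19.5%, 17.3% and 12.8% lower there. The marker counts in knockout and 2iL were near these shares. Gsk3a averaged 24.1 ± 0.973 CPM (counts scaled to normalised library sizes) in knockout and 71.0 ± 8.23 CPM in unmodified serum/LIF cells with DMSO (SD, n = 2 each), and Gsk3b averaged 46.9 ± 6.13 CPM and 73.5 ± 1.80 CPM in the same order of groups, so both transcripts were lower in the knockout and neither was absent. Fibroblast markers were at 0 for 5 of 10 genes in 2iL with DMSO and 4 of 10 in 2iL with JQ1, and none of the 10 was at 0 in any serum/LIF group. Their summed level was 42.7 and 33.0 TPM in knockout with JQ1, 66.9 and 91.8 TPM in knockout with DMSO, 1.90 and 1.43 TPM in 2iL with JQ1, 4.96 and 2.81 TPM in 2iL with DMSO, 85.4 and 78.0 TPM in serum/LIF with JQ1, and 186 and 176 TPM in serum/LIF with DMSO. Fibroblast transcripts thus differed between groups along with every comparison below, and their part in the results on the 8 genes was not tested. Primitive endoderm markers also differed, summing to 25.5 and 18.4 TPM in knockout with JQ1, 38.3 and 28.1 TPM in knockout with DMSO, 1.37 to 2.75 TPM over the 4 libraries in 2iL, and 9.15 to 22.2 TPM over the 4 of unmodified serum/LIF cells. Dab2 carried most of the sum in unmodified serum/LIF cells with DMSO, 18.6 and 9.77 TPM, and was lower in the knockout, while the other 7 of the 8 markers were higher there (median log2 fold change of the 8, 2.52). None of these 8 markers was at 0 in any group. Of 7 tested trophoblast markers, 1 was higher and 4 lower in the knockout against unmodified cells with DMSO (median -0.67). In 2iL against serum/LIF with DMSO, 2 were higher and 5 lower (median -4.02). With JQ1, 1, 1 and 0 of them were higher and 2, 1 and 3 lower in knockout, 2iL and serum/LIF. The shares of all genes are those given above for the ES cell markers, and several of these counts were near them. The part of the ES cell, primitive endoderm and trophoblast markers in the results was likewise not tested. In bulk RNA, fewer cells of a type and less RNA per cell cannot be told apart.

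Compared with each other per transcript length, Socs2 had the highest mean of the 8 and Jak2 the lowest in each of the 6 groups. By single library, Tyk2 lay below Jak2 in replicate 1 of serum/LIF with JQ1 (5.49 against 6.05 TPM) and with DMSO (4.80 against 5.43 TPM). Socs2 ranged over 32.1 to 70.2 TPM in the 12 libraries, which placed it between the 80.4th and 90.3rd percentile of tested genes. Jak2 ranged over 1.47 to 6.05 TPM, between the 31.0th and 47.1st percentile. Between them, Il6st exceeded its partner chain Lifr by a TPM ratio of 1.70 to 3.68 in every library, and Jak1 exceeded Jak2 by a ratio of 2.73 to 7.65 and Tyk2 by a ratio of 1.38 to 5.28. Among the kinase genes of the 8, Jak1 was therefore the highest in each of the 12 libraries. The related kinase gene Jak3, outside the 8, lay above it in 2iL. Jak3 had 30.9 and 35.8 TPM there with JQ1 and 32.4 and 43.2 TPM with DMSO, against 16.5 to 21.3 TPM for Jak1. Socs3 was the gene whose place shifted most, between the 41.0th and 76.1st percentile.

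**Figure D1:**
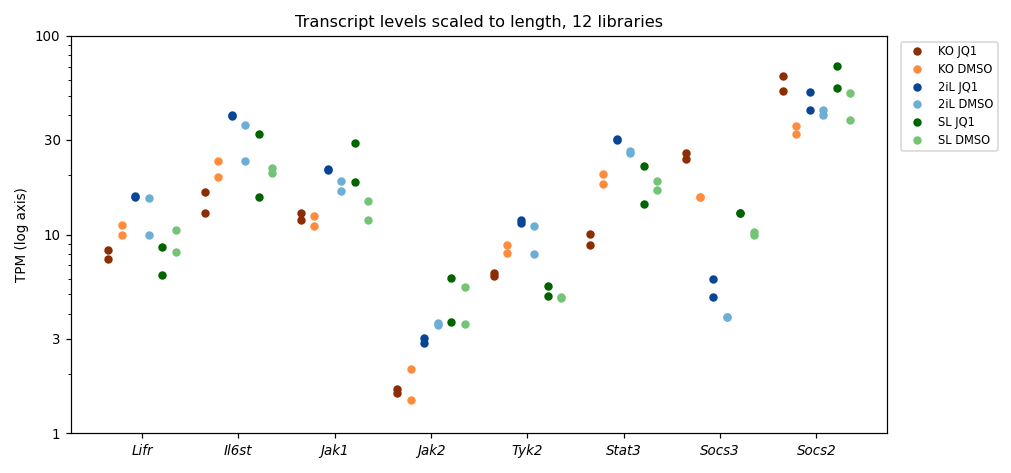
Transcript level of the 8 genes in TPM on a log axis, with 1 point per library and colours for the 6 groups. By group mean Socs2 lies highest and Jak2 lowest, with libraries at 32.1 to 70.2 TPM and 1.47 to 6.05 TPM, and Socs3 spreads most between groups.

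The 8 genes did not change together. Each comparison was tested over all 16987 genes with edgeR's quasi-likelihood test and Benjamini-Hochberg adjustment, and a gene passed at an adjusted p below 0.05. JQ1 in knockout cells raised 2 of the 8 (Socs3, Socs2) and lowered 2 (Stat3, Tyk2), where 34.1% of all genes passed (14.6% higher and 19.5% lower). JQ1 in 2iL raised 1 (Socs3) and lowered 0, where 28.5% of all genes passed (11.2% higher and 17.3% lower). JQ1 in serum/LIF raised 1 (Jak1) and lowered 1 (Lifr), where 21.3% passed (8.54% higher and 12.8% lower). The knockout against unmodified cells, both with DMSO, gave 2 higher (Tyk2, Socs3) and 1 lower (Jak2), where 40.0% passed (18.9% higher and 21.0% lower). 2iL against serum/LIF with DMSO gave 2 higher (Tyk2, Stat3) and 1 lower (Socs3), where 54.8% passed (28.3% higher and 26.5% lower). Read against these shares, the count of 4 of 8 with JQ1 in knockout was above the share of all genes, those with JQ1 in serum/LIF and for the knockout with DMSO were near it, and those with JQ1 in 2iL and for 2iL with DMSO were below it. With 8 genes, a difference of 1 or 2 calls moves such a count across the share. The median log2 fold change over the 8 was -0.22, 0.19, -0.06, 0.11 and 0.19 in the same order of comparisons, beside -0.06, -0.06, -0.02, 0.01 and 0.04 over all genes. The JQ1 comparisons and the DMSO comparisons share control libraries, so their results are not independent of each other.

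**Figure D2:**
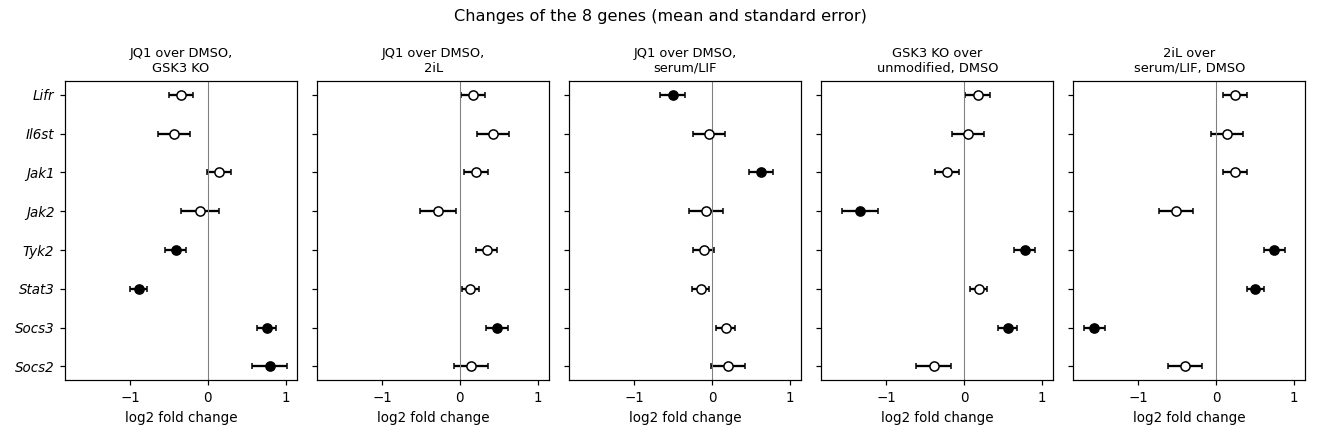
Log2 fold change of each of the 8 genes, with its standard error, in 5 comparisons. Filled points passed an adjusted p of 0.05 and open points did not; Socs3 is filled in 4 of the 5 panels, to the right in 3 of them and at -1.57 to the left in 2iL against serum/LIF.

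Each gene's level was then followed across the 6 groups, starting at the receptor. Lifr (ENSMUSG00000054263.11, chromosome 15, 7090614 to 7197489, plus strand, GRCm38) encodes the chain that binds LIF. It had 69.9 and 69.2 CPM in knockout with JQ1, 88.8 and 87.6 CPM in knockout with DMSO, 103 and 104 CPM in 2iL with JQ1, 77.3 and 108 CPM in 2iL with DMSO, 59.4 and 50.5 CPM in serum/LIF with JQ1, and 67.6 and 88.8 CPM in serum/LIF with DMSO. Serum/LIF with JQ1 was the only group below all others, and the other groups overlapped their neighbours in the order of means. The highest group mean, 104 CPM in 2iL with JQ1, was 1.89 times the lowest, 54.9 CPM in serum/LIF with JQ1. With JQ1 in serum/LIF, Lifr fell by 0.51 ± 0.16 on the log2 scale (SE, adjusted p = 0.0389). This call was lost in 3 of 11 alternative analyses, whose adjusted p ran from 0.00493 to 0.302: with only the 4 libraries compared (0.0855), without serum/LIF DMSO replicate 2 (log2 fold change -0.30) and without serum/LIF JQ1 replicate 2 (-0.37). In 2iL and in knockout cells the JQ1 changes of Lifr did not pass (0.17 ± 0.16 with adjusted p = 0.458 and -0.34 ± 0.16 with adjusted p = 0.112).

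Il6st (ENSMUSG00000021756.12, chromosome 13, 112464070 to 112510086, plus strand) encodes gp130, the chain shared by the receptors of the interleukin-6 family. Its values were 109.9 and 94.3 CPM in knockout with JQ1, 143 and 133 CPM in knockout with DMSO, 198 and 198 CPM in 2iL with JQ1, 121 and 172 CPM in 2iL with DMSO, 163 and 96.4 CPM in serum/LIF with JQ1, and 134 and 133 CPM in serum/LIF with DMSO. The libraries of 2iL with JQ1 lay above every other library, and the remaining groups overlapped, with the serum/LIF JQ1 libraries far apart. Il6st passed in none of the 5 comparisons plotted. Its JQ1 changes were -0.44 ± 0.21 in knockout (adjusted p = 0.119), 0.43 ± 0.20 in 2iL (adjusted p = 0.132) and -0.04 ± 0.20 in serum/LIF (adjusted p = 0.907) on the log2 scale.

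**Figure D3:**
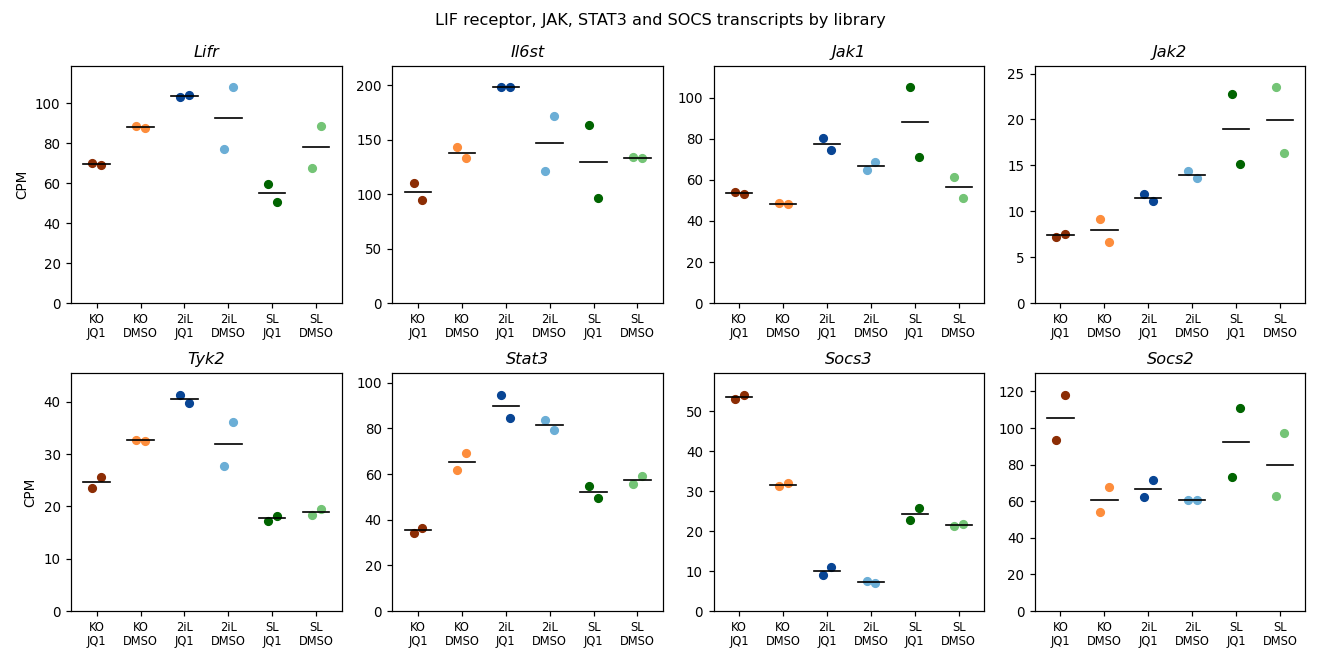
Level of each of the 8 genes in CPM on linear axes from 0, with 1 point per library, short lines at the group means, and KO for knockout and SL for serum/LIF. Stat3 is lowest in knockout with JQ1, at 34.4 and 36.3 CPM, where Socs3 is highest, at 53.0 and 54.1 CPM, and Jak2 is below 10 CPM in the 4 knockout libraries.

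Among the kinases, Jak1 (ENSMUSG00000028530.14, chromosome 4, 101152367 to 101265282, minus strand) encodes the kinase regarded as the main one for signalling through gp130. It had 54.1 and 53.0 CPM in knockout with JQ1, 48.6 and 48.3 CPM in knockout with DMSO, 80.3 and 74.4 CPM in 2iL with JQ1, 64.6 and 68.9 CPM in 2iL with DMSO, 105 and 71.1 CPM in serum/LIF with JQ1, and 61.4 and 51.4 CPM in serum/LIF with DMSO. Within each medium or genotype the JQ1 libraries lay above the DMSO libraries, by the widest margin in serum/LIF. There Jak1 rose by 0.64 ± 0.15 on the log2 scale (SE, adjusted p = 0.0118). Jak1 lost this call in 3 of the 11 alternatives, whose adjusted p ran from 4.31e-05 to 0.114: with only the 4 libraries compared (0.0629), without serum/LIF DMSO replicate 2 (log2 fold change 0.52) and without serum/LIF JQ1 replicate 1, the library at 105 CPM (0.34). The changes in 2iL, 0.21 ± 0.15, and in knockout, 0.15 ± 0.16, did not pass (adjusted p = 0.329 and 0.500). The last bases of Jak1 overlap the end of the antisense gene Raver2, which had 100 to 974 expected counts, and since the strand setting of the counting is not given in the sources used here, reads from the overlap cannot be told apart.

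Jak2 (ENSMUSG00000024789.12, chromosome 19, 29251828 to 29313080, plus strand) had the largest difference of the 3 kinase genes between knockout and unmodified cells with DMSO. Its values were 7.25 and 7.57 CPM in knockout with JQ1, 9.19 and 6.65 CPM in knockout with DMSO, 11.9 and 11.1 CPM in 2iL with JQ1, 14.4 and 13.6 CPM in 2iL with DMSO, 22.8 and 15.2 CPM in serum/LIF with JQ1, and 23.5 and 16.3 CPM in serum/LIF with DMSO. The 4 knockout libraries lay below all 4 of 2iL, which lay below all 4 of unmodified serum/LIF cells. Against unmodified cells, Jak2 fell in the knockout by 1.34 ± 0.23 on the log2 scale with DMSO (SE, adjusted p = 0.000542) and by 1.36 ± 0.23 with JQ1 (adjusted p = 0.000428), and both calls held in all 11 alternatives run for each. In 2iL against serum/LIF, both with DMSO, the change was -0.52 ± 0.22 and did not pass (adjusted p = 0.0632), although it passed in 6 of 11 alternatives, whose adjusted p ran from 0.0201 to 0.513. JQ1 moved Jak2 by -0.10 ± 0.24 in knockout, -0.28 ± 0.23 in 2iL and -0.08 ± 0.22 in serum/LIF, none of which passed.

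Tyk2 (ENSMUSG00000032175.11, chromosome 9, 21104068 to 21131243, minus strand), the third kinase gene, ran the other way between media and genotypes. It had 23.6 and 25.6 CPM in knockout with JQ1, 32.8 and 32.6 CPM in knockout with DMSO, 41.3 and 39.8 CPM in 2iL with JQ1, 27.8 and 36.2 CPM in 2iL with DMSO, 17.3 and 18.1 CPM in serum/LIF with JQ1, and 18.4 and 19.6 CPM in serum/LIF with DMSO. All 4 libraries of unmodified serum/LIF cells lay below the other 8. With DMSO, Tyk2 was higher by 0.78 ± 0.14 on the log2 scale in the knockout against unmodified cells (SE, adjusted p = 0.000514) and by 0.75 ± 0.13 in 2iL against serum/LIF (adjusted p = 0.000387), and both calls held in all 11 alternatives run for each. JQ1 lowered Tyk2 in the knockout by 0.41 ± 0.13 (adjusted p = 0.0308). That call was lost in 5 of 11 alternatives, namely without the low-count filter and without each of the 4 knockout libraries in turn, and its adjusted p ran from 0.0136 to 0.183. The JQ1 changes in 2iL (0.34 ± 0.13, adjusted p = 0.0692) and serum/LIF (-0.10 ± 0.14, adjusted p = 0.631) did not pass.

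Stat3 (ENSMUSG00000004040.16, chromosome 11, 100885098 to 100939540, minus strand) encodes the transcription factor at the end of the chain. It had 34.4 and 36.3 CPM in knockout with JQ1, 61.6 and 69.2 CPM in knockout with DMSO, 94.6 and 84.6 CPM in 2iL with JQ1, 83.5 and 79.3 CPM in 2iL with DMSO, 54.6 and 49.3 CPM in serum/LIF with JQ1, and 55.8 and 59.0 CPM in serum/LIF with DMSO. The order of the group means ran 89.6, 81.4, 65.4, 57.4, 51.9 and 35.3 CPM, in 2iL with JQ1, 2iL with DMSO, knockout with DMSO, serum/LIF with DMSO, serum/LIF with JQ1 and knockout with JQ1, and no 2 neighbours in it overlapped. On the TPM scale, the 2 serum/LIF groups and knockout with DMSO did overlap. JQ1 lowered Stat3 in knockout cells by 0.89 ± 0.11 on the log2 scale (SE, adjusted p = 9.86e-05), a call held in all 11 alternatives, whose changes ran from -0.97 to -0.80. In 2iL (0.14 ± 0.11, adjusted p = 0.369) and in serum/LIF (-0.14 ± 0.11, adjusted p = 0.386) the JQ1 change did not pass. With DMSO, Stat3 was higher in 2iL than in serum/LIF by 0.51 ± 0.11 (adjusted p = 0.00151), while the knockout differed from unmodified cells by 0.19 ± 0.11 (adjusted p = 0.187). The end of Stat3 overlaps the antisense gene Stat5a, which had 11 to 91.58 expected counts, and reads from the overlap cannot be told apart.

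Socs3 (ENSMUSG00000053113.3, chromosome 11, 117966079 to 117970047, minus strand), the STAT3-induced inhibitor, varied most of the 8. Its values were 53.0 and 54.1 CPM in knockout with JQ1, 31.3 and 32.0 CPM in knockout with DMSO, 9.00 and 11.1 CPM in 2iL with JQ1, 7.43 and 7.05 CPM in 2iL with DMSO, 22.8 and 25.7 CPM in serum/LIF with JQ1, and 21.2 and 21.7 CPM in serum/LIF with DMSO. No 2 groups overlapped: the knockout groups were highest, the serum/LIF groups followed and the 2iL groups were lowest, and within each pair the JQ1 libraries lay above the DMSO libraries. The highest group mean, 53.5 ± 0.746 CPM in knockout with JQ1, was 7.39 times the lowest, 7.24 ± 0.273 CPM in 2iL with DMSO (SD, n = 2 each). With DMSO, Socs3 was higher in the knockout than in unmodified cells by 0.56 ± 0.13 on the log2 scale (SE, adjusted p = 0.00333) and lower in 2iL than in serum/LIF by a log2 fold change of -1.57 ± 0.14 (adjusted p = 7.32e-07). The 2 settings that block GSK3 thus lay on opposite sides of unmodified serum/LIF cells, although the 2iL medium also holds the MEK inhibitor and lacks serum. JQ1 raised Socs3 in the knockout by 0.76 ± 0.13 (adjusted p = 0.000703) and in 2iL by 0.48 ± 0.14 (adjusted p = 0.0231), and the change in serum/LIF, 0.18 ± 0.13, did not pass (adjusted p = 0.347). The calls in the knockout and in both DMSO comparisons held in all 11 alternatives run for each. The call in 2iL was lost in 5 of 11 alternatives, whose adjusted p ran from 0.0191 to 0.216: without the low-count filter (0.0501), with only the 4 libraries compared (0.0873), without 2iL DMSO replicate 1 (0.063) or replicate 2 (0.0775), and without 2iL JQ1 replicate 2 (log2 fold change 0.32).

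Set against each other per length, Socs3 and Stat3 changed places between groups. The ratio of Socs3 to Stat3 in TPM was 2.53 and 2.70 in knockout with JQ1, 0.861 and 0.768 in knockout with DMSO, 0.160 and 0.199 in 2iL with JQ1, 0.150 and 0.147 in 2iL with DMSO, 0.578 and 0.905 in serum/LIF with JQ1, and 0.615 and 0.532 in serum/LIF with DMSO. Knockout with JQ1 was the only group in which the inhibitor's transcript exceeded that of Stat3. The group with the least Stat3 had the most Socs3, and the 4 libraries of 2iL, with the most Stat3, had the least Socs3.

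**Figure D4:**
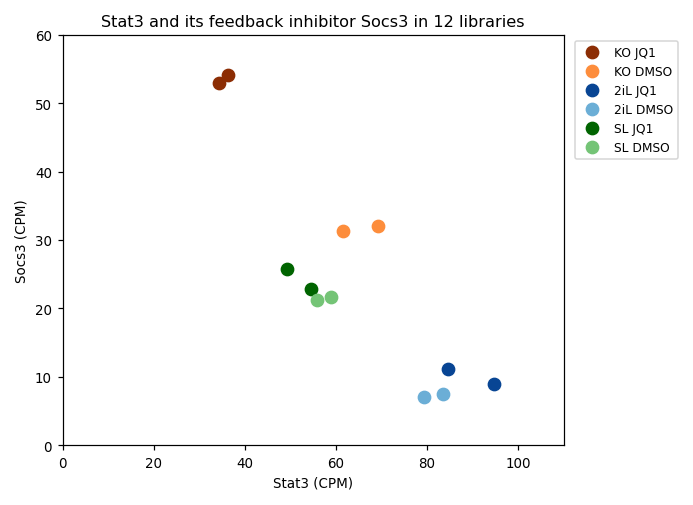
Level of Stat3 (horizontal axis) against Socs3 (vertical axis) in CPM, with 1 point per library and colours for the 6 groups. The knockout libraries with JQ1 lie at the upper left, at 34.4 and 36.3 CPM of Stat3, and the 4 libraries of 2iL at the lower right, at 7.05 to 11.1 CPM of Socs3.

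The promoters of these 2 genes are printed because their transcripts moved in opposite directions with JQ1 in knockout cells. RefSeq promoter windows on GRCm38.p6, 300 bases long with 250 before the start and 50 after it, matched 7 of the 8 genes and gave 8 windows, since Lifr has 2. They were searched for TTCNNNGAA, the core to which STAT proteins bind, which reads the same on both strands. It was found in 1 of the 8 windows, that of Socs3, and in 8.3% of all 32851 windows (2726). The match ends 146 bases before the RefSeq start of Socs3, at 117969512 to 117969520 on chromosome 11, and is in capitals below. The window of Stat3 held none. The distance depends on the start chosen, since the principal GENCODE transcript, Socs3-201, starts 180 bases downstream of the RefSeq start, at 117969186. The Socs3 window and its match also lie inside the annotated span of the gene, 117966079 to 117970047. A match is a description of the letters and no evidence of binding. The 250 bases before each start, on the minus strand at chr11:117969367-117969616 for Socs3 and chr11:100939541-100939790 for Stat3, read 5′ to 3′:
Socs3: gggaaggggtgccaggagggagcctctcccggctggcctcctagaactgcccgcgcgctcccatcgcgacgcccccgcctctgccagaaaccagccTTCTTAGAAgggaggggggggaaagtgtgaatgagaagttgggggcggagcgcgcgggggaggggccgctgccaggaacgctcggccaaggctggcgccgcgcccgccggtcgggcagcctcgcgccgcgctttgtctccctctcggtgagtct
Stat3: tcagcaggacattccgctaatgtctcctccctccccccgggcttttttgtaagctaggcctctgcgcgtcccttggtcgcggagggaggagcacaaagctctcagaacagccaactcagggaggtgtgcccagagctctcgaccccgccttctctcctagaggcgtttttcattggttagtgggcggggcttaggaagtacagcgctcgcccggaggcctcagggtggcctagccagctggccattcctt

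Socs2 (ENSMUSG00000020027.18, chromosome 10, 95385362 to 95417180, minus strand) encodes an inhibitor best known for restraining growth hormone signalling, which is also induced by STAT proteins. It had 93.2 and 118 CPM in knockout with JQ1, 53.9 and 67.7 CPM in knockout with DMSO, 62.1 and 71.8 CPM in 2iL with JQ1, 60.5 and 60.8 CPM in 2iL with DMSO, 73.5 and 111 CPM in serum/LIF with JQ1, and 62.9 and 97.2 CPM in serum/LIF with DMSO. Replicates lay far apart in both groups of unmodified serum/LIF cells, and the groups overlapped along the whole order of means, which spanned a ratio of 1.74. JQ1 raised Socs2 in the knockout by 0.79 ± 0.22 on the log2 scale (SE, adjusted p = 0.0146), and there the JQ1 and DMSO libraries did not overlap. This was lost in 2 of 11 alternatives, without knockout DMSO replicate 1 (adjusted p = 0.121) and without knockout JQ1 replicate 2 (0.116), within a range of 2.12e-08 to 0.121. The differences of Socs2 in the knockout (-0.39 ± 0.22, adjusted p = 0.176) and in 2iL (-0.40 ± 0.22, adjusted p = 0.143) against unmodified serum/LIF cells with DMSO did not pass. Each passed in 3 of 11 alternatives. These were no low-count filter (0.0206 and 0.0141), the replicate number as a block (0.0464 and 0.0415), and leaving out serum/LIF DMSO replicate 1 (log2 fold change -0.67 and -0.68). The estimate in 2iL had the direction of Socs3, and that in the knockout the opposite one.

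With JQ1 present in both arms, the comparisons of medium and genotype gave more calls. In 2iL against serum/LIF, 4 of the 8 were higher and 2 lower, where 53.3% of all genes passed (25.4% higher and 27.9% lower). Lifr (0.92 ± 0.16, adjusted p = 0.00033), Tyk2 (1.20 ± 0.14, adjusted p = 8.1e-06) and Stat3 (0.79 ± 0.11, adjusted p = 5.13e-05) were higher and Socs3 was lower (-1.26 ± 0.13, adjusted p = 4.23e-06), each held in all 11 alternatives. The count of 6 of 8 was above the share of all genes. Il6st was also higher (0.61 ± 0.20, adjusted p = 0.0227) and Jak2 lower (-0.73 ± 0.23, adjusted p = 0.0157), but these were less firm. Il6st lost the call in 4 of 11 alternatives with an adjusted p between 2.66e-05 and 0.330, namely with only the 4 libraries compared, without serum/LIF JQ1 replicate 2 (log2 fold change 0.22) and without either library of 2iL with JQ1. Jak2 lost it in 2 of 11, without serum/LIF JQ1 replicate 1 (-0.40) and without 2iL JQ1 replicate 2, with an adjusted p between 0.000735 and 0.194.

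In knockout against unmodified cells, both with JQ1, 2 of the 8 were higher and 3 lower, where 44.0% of all genes passed (20.4% higher and 23.6% lower), so the count of 5 of 8 was above the share of all genes. Socs3 (1.14 ± 0.13, adjusted p = 1.33e-05) and Tyk2 (0.47 ± 0.14, adjusted p = 0.0131) were higher. Stat3 (-0.56 ± 0.11, adjusted p = 0.00137), Jak1 (-0.71 ± 0.16, adjusted p = 0.00246) and Jak2 were lower. These calls held in all 11 alternatives run for each except that of Tyk2, lost in 2 of 11, without serum/LIF JQ1 replicate 1 (adjusted p = 0.0692) and without knockout JQ1 replicate 2 (0.0873), within a range of 0.00930 to 0.0873. For Jak1, the change ran down to -0.41 without serum/LIF JQ1 replicate 1. Stat3, which had been level with or above unmodified cells in DMSO, was thus below them in JQ1.

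Whether the JQ1 response itself differed between settings was tested as an interaction. Of the 8 genes, Stat3 responded differently in the knockout than in unmodified serum/LIF cells, by -0.75 ± 0.16 on the log2 scale (SE, adjusted p = 0.0197), where 4.37% of all genes passed (1.25% higher and 3.12% lower). This call was lost in 5 of 15 alternatives, each of them leaving out 1 library, and its value ran from -0.83 to -0.66 with an adjusted p between 0.00223 and 0.101. The libraries concerned were serum/LIF DMSO replicate 1, serum/LIF JQ1 replicate 1, knockout DMSO replicate 2 and both of knockout with JQ1. The interaction for Socs3 was 0.58 ± 0.18 (adjusted p = 0.0822) and for Socs2 0.58 ± 0.31 (adjusted p = 0.277), and neither passed. Socs3 did pass with DESeq2 (0.61, adjusted p = 0.0375, within 0.0375 to 0.258 over 15 alternatives) and Socs2 without the low-count filter (0.61, adjusted p = 0.0293, within 0.0293 to 0.679). Between 2iL and serum/LIF, 0 of the 8 responses differed by edgeR and 0 by DESeq2, where 4.16% of all genes passed by edgeR (1.35% higher and 2.80% lower). At an unadjusted p below 0.05 there were 2, beside 2937 of the 16987 genes, namely Lifr (0.67 ± 0.22, adjusted p = 0.126) and Tyk2 (0.45 ± 0.19, adjusted p = 0.241).

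Around the 8 genes, the wider pathway was followed in lists of known components. Of 8 tested cytokine genes of the interleukin-6 family, which signal through gp130, JQ1 lowered 5, 3 and 4 and raised 0, 0 and 1 in knockout, 2iL and serum/LIF, where 19.5%, 17.3% and 12.8% of all genes fell and 14.6%, 11.2% and 8.54% rose. The median log2 fold change of the 8 was -1.41, -0.87 and -1.18, and over 11 alternatives the counts lowered ran from 2 to 5, 2 to 3 and 3 to 5. Lif itself had 1.34 and 1.50 CPM in knockout with JQ1 and 4.22 and 4.92 CPM in knockout with DMSO, 1.65 and 1.77 CPM in 2iL with JQ1 and 8.26 and 8.38 CPM in 2iL with DMSO, and 7.12 and 4.89 CPM in serum/LIF with JQ1 and 13.7 and 11.9 CPM in serum/LIF with DMSO. It was lower with JQ1 in all 3 settings without overlap, by -1.69 ± 0.25 (adjusted p = 0.00034), -2.28 ± 0.24 (3.71e-05) and -1.09 ± 0.21 (0.00322) on the log2 scale, while LIF was supplied in the medium. Osm, which encodes the related cytokine oncostatin M, had 0.854 and 0.776 CPM in 2iL with JQ1 and 8.54 and 11.8 CPM in 2iL with DMSO, a change of -3.64 ± 0.36 (adjusted p = 2.47e-05). Its libraries in knockout with JQ1 (0.0687 and 0.0557 CPM) and serum/LIF with JQ1 (0.0434 and 0 CPM) were below the level of 3 counts in each library, so no fold is given there. Il6, also counted as lowered in these settings, was below that level too. It had 0 and 0 CPM in knockout with JQ1 and 0 and 0.0484 CPM in serum/LIF with JQ1. The counts and medians above include these genes.

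Of 6 tested genes for other receptors of the family, JQ1 lowered 4, 3 and 2 and raised 0 in knockout, 2iL and serum/LIF, where 19.5%, 17.3% and 12.8% of all genes fell, with medians of -1.37, -1.27 and -0.59. The counts lowered ran over 4 to 4, 1 to 4 and 0 to 3 in 11 alternatives. In 2iL the count includes Il27ra, whose libraries with JQ1 there (0.0569 and 0 CPM) were below the level of 3 counts. Cntfr, which encodes the receptor chain for ciliary neurotrophic factor, had 2.64 and 2.45 CPM in knockout with JQ1 and 19.6 and 20.3 CPM in knockout with DMSO (-2.96 ± 0.25, adjusted p = 6.45e-06). Il6ra, the interleukin-6 receptor chain, was higher in the knockout, at 29.5 and 30.9 CPM, against 7.74 and 5.73 CPM in unmodified cells with DMSO (2.14 ± 0.27, adjusted p = 4.32e-05). These partner chains passed where Il6st, the chain they share with LIFR, did not. With JQ1 in the knockout, the change of Il6st had the same direction as that of Cntfr (-0.44 ± 0.21, adjusted p = 0.119). It passed in 2 of 11 alternatives, without the low-count filter (0.0152) and with only the libraries compared (0.00567).

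The 7 other JAK and STAT genes gave 5, 5 and 3 lower and 0, 1 and 0 higher with JQ1 in knockout, 2iL and serum/LIF, where 19.5%, 17.3% and 12.8% of all genes were lower and 14.6%, 11.2% and 8.54% higher. The medians were -0.74, -0.85 and -0.38, and over 11 alternatives 2 to 6, 3 to 5 and 1 to 3 were lower. In 2iL against serum/LIF with DMSO, 5 were higher and 0 lower, beside 28.3% and 26.5% of all genes (median 0.93, with 3 to 5 higher over 11 alternatives). In knockout against unmodified cells 2 were higher and 2 lower, beside 18.9% and 21.0% of all genes (median 0.04). Jak3, whose product serves cytokine receptors of lymphocytes, had 100 and 129.6 CPM in 2iL and 22.6 and 28.5 CPM in serum/LIF with DMSO (2.18 ± 0.19, adjusted p = 9.18e-07). Stat2, an interferon-pathway factor, was higher in the knockout (1.16 ± 0.15, adjusted p = 6.38e-05) and in 2iL (1.30 ± 0.15, adjusted p = 1.12e-05) against unmodified serum/LIF cells.

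Of 16 tested negative regulators of the pathway other than Socs3 and Socs2, JQ1 raised 4, 3 and 6 and lowered 3, 1 and 1 in knockout, 2iL and serum/LIF, where 14.6%, 11.2% and 8.54% of all genes rose and 19.5%, 17.3% and 12.8% fell. In the knockout the count lowered was near the share of all genes. The medians were 0.17, 0.20 and 0.19. The counts raised ran over 2 to 5, 0 to 4 and 1 to 6 in 11 alternatives. Socs1, a close relative of Socs3, went the other way from it in the knockout, with 3.20 and 3.30 CPM, against 11.3 and 7.16 CPM in unmodified cells with DMSO (-1.52 ± 0.28, adjusted p = 0.000919). In 2iL with DMSO it had 3.58 and 2.16 CPM (-1.70 ± 0.28 against serum/LIF, adjusted p = 0.000224). Cish, a SOCS gene induced by STAT5, had 0.688 and 1.11 CPM in 2iL and 6.01 and 4.76 CPM in serum/LIF with DMSO (-2.59 ± 0.37, adjusted p = 6.68e-05). Socs4, named after its values were seen, was higher in the knockout as Socs3 was, with 49.6 and 52.1 CPM, against 38.4 and 37.9 CPM in unmodified cells with DMSO (0.42 ± 0.12, adjusted p = 0.0121). That call was lost in 3 of 11 alternatives, without either library of serum/LIF with DMSO and without knockout DMSO replicate 2.

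Genes for the other branches from the receptor, the MAP kinase and PI3 kinase routes, gave 5, 9 and 7 higher and 0 lower with JQ1 of 15 tested in knockout, 2iL and serum/LIF, where 14.6%, 11.2% and 8.54% of all genes were higher and 19.5%, 17.3% and 12.8% lower, with medians of 0.11, 0.36 and 0.35. Over 11 alternatives 5 to 7, 5 to 10 and 2 to 8 were higher. Pik3r1, the regulatory subunit of PI3 kinase, had 33.5 and 29.8 CPM in knockout with JQ1 and 16.9 and 13.2 CPM in knockout with DMSO (1.07 ± 0.14, adjusted p = 0.000178), and it rose by 1.19 ± 0.14 in both 2iL and serum/LIF. Of 20 reported STAT3 targets in ES cells, JQ1 lowered 8, 4 and 7 and raised 1, 4 and 6 in the same settings, beside 19.5%, 17.3% and 12.8% of all genes lowered and 14.6%, 11.2% and 8.54% raised. The count lowered in 2iL was near the share of all genes. The medians were -0.42, 0.15 and -0.05, and over 11 alternatives 6 to 11, 3 to 5 and 4 to 8 were lower. Sgk1, a kinase gene, had 18.4 and 21.3 CPM in knockout with JQ1 and 147 and 173 CPM in knockout with DMSO (-3.02 ± 0.16, adjusted p = 2.5e-07). Bcl3, which encodes a nuclear cofactor of NF-kappaB, had 4.40 and 5.74 CPM in knockout with JQ1 and 18.8 and 21.3 CPM in knockout with DMSO (-2.00 ± 0.18, adjusted p = 1.02e-05). Sgk1 and Bcl3 thus fell with JQ1 in the knockout where Socs3 rose. Gbx2, the 1 target raised there, moved with Socs3, at 90.3 and 89.2 CPM with JQ1 and 47.1 and 40.9 CPM with DMSO (log2 fold change 1.03).

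With DMSO, the STAT3 targets split in both directions, with 7 higher and 6 lower in the knockout against unmodified cells and 5 higher and 8 lower in 2iL against serum/LIF, and medians of -0.10 and -0.01. Of all genes, 18.9% were higher and 21.0% lower in the knockout, and 28.3% were higher and 26.5% lower in 2iL, where the count higher was near the share of all genes. Tbx3, which encodes a factor of naive pluripotency, had 315 and 303 CPM in the knockout and 20.0 and 20.5 CPM in unmodified cells (3.94 ± 0.13, adjusted p = 1.59e-09). Tfcp2l1, which encodes another such factor, had 535 and 459 CPM in the knockout and 55.4 and 81.4 CPM in unmodified cells (2.87 ± 0.17, adjusted p = 1.47e-07). Both were higher beside Socs3 in the knockout. In 2iL, Tbx3 had 224 and 197 CPM (3.38 ± 0.12 against serum/LIF, adjusted p = 9.85e-10). Junb, a component of the AP-1 factor, had 4.41 and 3.69 CPM in 2iL and 83.2 and 55.7 CPM in serum/LIF (-4.11 ± 0.21, adjusted p = 9.34e-09). Myc had 6.33 and 6.82 CPM in 2iL and 84.2 and 67.5 CPM in serum/LIF (-3.53 ± 0.16, adjusted p = 3.79e-09). In 2iL, Junb and Myc were thus lower along with Socs3, while Tbx3 was higher. Junb was also lower in the knockout, at 11.2 and 14.5 CPM with DMSO (log2 fold change -2.44 against unmodified cells). It was among the 6 targets that were lower there while Socs3 was higher.

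**Figure D5:**
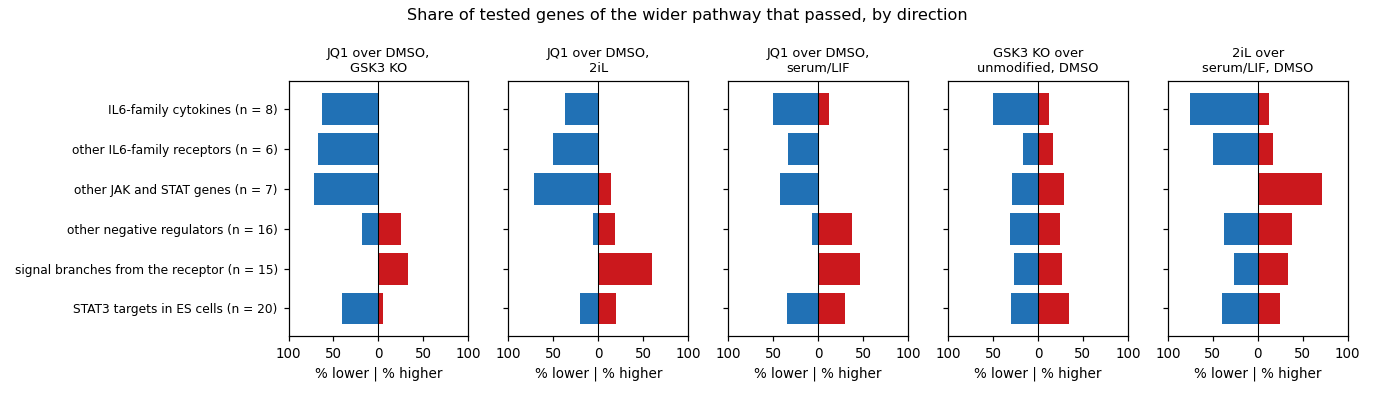
Share of the tested genes of each list that passed an adjusted p of 0.05, lower to the left in blue and higher to the right in red, in 5 comparisons. In the 3 JQ1 panels the branches from the receptor have a bar to the right and none to the left (5, 9 and 7 of 15 genes higher), and in 2iL against serum/LIF the other JAK and STAT genes do (5 of 7).

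The genes whose levels most resembled those of 7 of the 8 over the 12 libraries were found by Pearson's r of log2 CPM among 10565 genes averaging at least 5 CPM. The 12 libraries fall into 6 groups, so a high r mostly describes a shared order of groups. For Socs3 the closest were Scamp4 (r = 0.983), Sav1 (0.982) and Katnbl1 (0.973), and for Stat3 they were Mical1 (0.968), Sall1 (0.955) and Gli2 (0.947). Tyk2 was followed most closely by Mms19 (0.988), Arid5b (0.979) and Pan2 (0.979), and Jak2 by Pawr (0.971), Arap2 (0.964) and Tmem38a (0.960). For Jak1 they were Rps6ka3 (0.942), Ppm1l (0.940) and Fam20b (0.935), and for Il6st Lnpep (0.962), Slmap (0.957) and Pcdhgc3 (0.955). Lifr came closest to Rest (0.926), Sulf2 (0.926) and Chd2 (0.924). The 8 genes themselves were left out of this search.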

How the data were processed

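RNA-seq libraries of 12 ES cell samples were sequenced in pairs of reads. Per the submitters' processing notes, bcl2fastq, STAR 2.5.2, RSEM and DESeq2 1.18.1 and the mouse build mm10 were used. The deposited tables give, per gene, RSEM's expected counts, TPM and FPKM made by the authors, and effective lengths, which were not used. Whether the counting used strand is not given in the sources used here.

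Expected counts were rounded to whole numbers. Low genes were removed by edgeR's filterByExpr (count 10, total 15), and TMM library sizes gave CPM. One quasi-likelihood fit of 6 groups in edgeR 4.0.16 under R 4.3.3 covered the 12 libraries with 6 residual degrees of freedom (common biological coefficient of variation 0.129), and p-values were two-sided and Benjamini-Hochberg adjusted over the 16987 genes tested. Each standard error was the fold change divided by the square root of F. Totals of 17869865 to 48723436 counts set the floor of 3 counts at 0.0611 to 0.171 CPM. The fit was tested on simulated data.

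Alternatives were RLE size factors, DESeq2 1.42.0, no low-count filter, 1 CPM in 4 libraries, only the libraries compared, a replicate block, no mitochondrial genes, and each library left out. Genes outside the 8 were named by rule: up to 3 with the largest change per list and comparison. Some were named outside this rule, after their values were seen. They were Lif for JQ1 in serum/LIF, as the ligand, and Gbx2 for JQ1 in the knockout. Socs4, Junb and Dab2 for the knockout against unmodified cells were the others. Identifiers were matched to GENCODE mouse release 21 without version (52403 of 52550). The 8 genes and all lists were chosen with earlier results of these data known. The genes most like Socs2 are not reported here.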

Additional observations from a re-analysis of the deposited data

Results flagged for a closer look

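The JQ1 response of Stat3 differed between GSK3-knockout and unmodified cells in serum/LIF, by -0.75 on the log2 scale in a test of the difference itself (edgeR's quasi-likelihood test, adjusted p = 0.0197). The call was lost in 5 of 15 alternatives, each leaving out 1 library, either knockout JQ1 library among them, and the adjusted p ran from 0.00223 to 0.101 over the 15. Stat3 had 34.4 and 36.3 CPM with JQ1 and 61.6 and 69.2 CPM with DMSO in knockout cells, and 54.6 and 49.3 CPM with JQ1 and 55.8 and 59.0 CPM with DMSO in unmodified cells. The groups hold 2 libraries each, too few to test single libraries as outliers.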

How the results depend on the processing

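Of the results on single genes of the 8 under each alternative, 791 kept their side of the threshold, 34 newly passed, 31 no longer passed and 0 reversed. With only the libraries compared, the number of the 8 called with JQ1 was 0 in serum/LIF (2 as reported) and 0 in 2iL (1). Over all genes, this setting gave 588 higher and 1657 lower of 15850 in serum/LIF. It gave 1709 higher and 2374 lower of 14756 in 2iL. As reported, 1450 were higher and 2173 lower in serum/LIF, and 1896 higher and 2938 lower in 2iL, of 16987. With no low-count filter the number of the 8 called was 5 for 2iL against serum/LIF with DMSO (3), 1 for the JQ1 response in 2iL minus serum/LIF (0) and 2 for that in knockout minus unmodified cells (1), which was also 2 with DESeq2. Over all genes without the filter, 4835, 522 and 732 were higher and 4844, 956 and 1279 lower of 30185, in the same order. DESeq2 gave 540 higher and 810 lower of 16987 for the last comparison. A required log2 fold change of at least 1 left 0 for each of the 3 JQ1 comparisons and for knockout minus unmodified cells, 1 for 2iL and 1 for the knockout against unmodified serum/LIF cells with DMSO, and 2 for each with JQ1. Of all 16987 genes, JQ1 then raised 297, 243 and 163 and lowered 2178, 2146 and 1521 in knockout, 2iL and serum/LIF. For knockout minus unmodified cells, 120 were higher and 401 lower. With DMSO, 2141 were higher and 3233 lower for 2iL, and 1117 and 2374 for the knockout. With JQ1, these were 1868 and 3441, and 963 and 2697.

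Leaving out each library in turn gave 2 to 3 calls with JQ1 in knockout, 0 to 2 in 2iL and 0 to 2 in serum/LIF, 3 to 4 for the knockout and 3 to 4 for 2iL against unmodified serum/LIF cells with DMSO, 4 to 6 for each with JQ1, and 0 to 2 and 0 to 1 for the responses in knockout and in 2iL minus unmodified serum/LIF cells. The lone library left in a group is then assumed to vary like the other groups. The number of all genes that passed changed between these fits as well. The highest and lowest groups by TPM were the same for 5 of the 8 genes by CPM and 5 by FPKM, differing for Jak2, Tyk2 and Socs2. Of 2140 counts over the gene lists, 268 moved by over 1.5 times.

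Replicate numbers do not pair the groups: the differences between replicates 1 and 2 correlated at -0.186 to 0.185 over 15 pairs of groups. With the replicate number as a block, 2 of the 8 passed with JQ1 in 2iL and 5 in 2iL against serum/LIF with DMSO. Of all 16987 genes, 2051 were higher and 3096 lower in the former, and 4953 higher and 4619 lower in the latter.

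With 2 libraries a group, changes well below the spread between replicates were not detectable.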
